A study of Mus musculus with 4 samples.

Results

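The carriers of the SLC25 family were taken by name from a whole-genome oligonucleotide microarray study of the mouse small-intestinal epithelium. Every non-control probe whose listed gene name begins with Slc25a, or is Ucp1, Ucp2, Ucp3, Mtch1 or Mtch2, was included, which gave 80 of 41174 probes, for 47 genes. Of these, 43 probes for 33 genes were well above background on 2 or more of the 4 arrays and are described here, out of 12446 genes tested on that criterion. Freshly isolated small bowel cells came from IKKb(EE)IEC mice, in whose intestinal epithelial cells the kinase IKKb is constitutively active, and from their wild-type (WT) littermates. Each genotype had 2 biological replicates with 1 array each. The sources used here give neither the age of the mice, nor how many went into a sample, nor which promoter drives the kinase.

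SLC25 proteins form the largest family of transporters in the inner mitochondrial membrane. They are encoded in the nucleus, imported through the TOM and TIM22 complexes, and exchange nucleotides, phosphate, carboxylates, amino acids, cofactors and metals between cytosol and matrix. In absorptive epithelium such exchange serves ATP export, the oxidation of fatty acids and of glutamine, and the synthesis of citrulline from glutamine. A few relatives, among them Mtch1, Mtch2 and Slc25a46, sit in the outer membrane instead, and Slc25a17 is found in peroxisomes.

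Few transcripts of the family passed the test between the genotypes. In IKKb(EE)IEC cells 3 of the 33 genes fell, 0 rose and 30 did not pass the threshold (adjusted p below 0.05 by limma, adjusted over all genes tested). The 3 were Slc25a29, a carrier of basic amino acids, Mtch2, an insertase of the outer membrane, and Slc25a37, an iron carrier. Over all genes tested 7.17% were lower and 7.97% higher, so that the share of carriers that fell, 9.09%, lay near the background. With each gene read from its brightest probe, 0 of the 33 carriers differed by 2-fold or more, against 11.8% of all genes. Second probes of Slc25a36, Slc25a25 and Slc25a3 did, as given below, and that of Slc25a3 was near background and did not pass. Of the 33 genes 23 had a log2 fold change between -0.5 and 0.5. At an unadjusted p under 0.05, 4 carriers were higher and 6 lower, against 16.5% and 21.6% of all genes. The median log2 fold change of the carriers was -0.11, close to the -0.12 of all genes tested. With no filter on dim probes the median of all genes was -0.45. The carrier median under that setting was taken over the same 33 genes and probes, so its -0.11 could not change. Without IKKb(EE)IEC replicate 1 or replicate 2, 0 carriers passed, while 13 passed without WT replicate 1 and 8 without WT replicate 2.

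**Figure D1:**
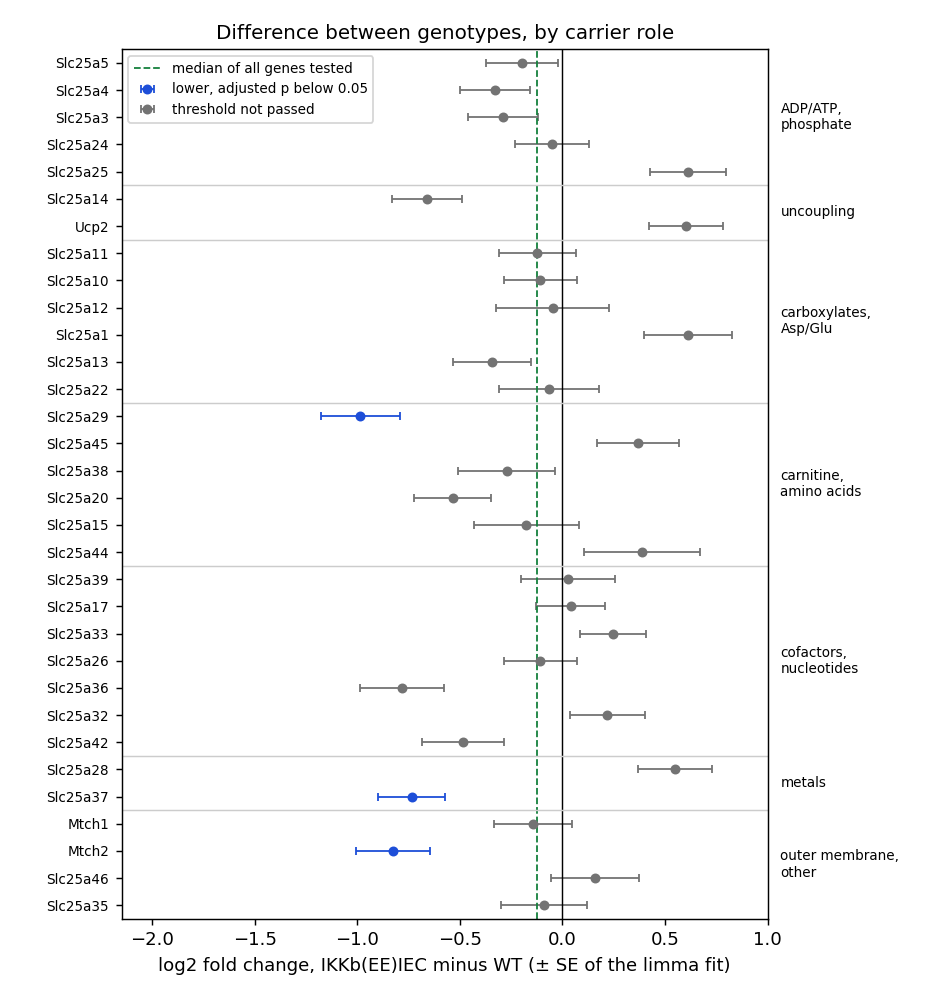
Log2 fold change (IKKb(EE)IEC minus WT, horizontal axis) of 32 of the 33 carrier genes, grouped by role down the page, with the standard error of the limma fit as bars. The 3 genes that fell lie between -0.99 and -0.74, and the dashed line at -0.12 marks the median of all genes tested.

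All values below are log2 of the processed spot signal minus the log2 of the array's 75th percentile ("normalized log2 signal"), so a value of 0 is a spot at that percentile. Probes differ in how brightly they hybridise, and levels are compared between arrays for 1 probe only. A log2 fold change is the IKKb(EE)IEC mean minus the WT mean, each over 2 arrays, and is followed by its standard error (SE) from the fit. The smallest p that an exact permutation of 2 against 2 arrays allows is 0.333, so no single gene could be tested that way. Where another setting is named, normexp is a model-based background correction of the raw spot means, used as planned and in a repaired form that leaves out 7 probes whose local background exceeds the spot, and the authors' value table is their own normalized version of the same arrays.

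The 4 arrays share 1 slide and 1 scan, with the genotypes at separate positions, so slide position and genotype cannot be told apart. IKKb(EE)IEC arrays were brighter, with a 75th percentile of 94.6 and 107.8, against 60.3 and 66.1 for the WT arrays. Ikbkb, the gene of the activated kinase, had normalized log2 signals of 0.33 and 0.34 in IKKb(EE)IEC, against -0.72 and -0.27 in WT, with a log2 fold change of 0.83 ± 0.21 that did not pass (adjusted p = 0.0551). Whether its probe also detects the transgene was not tested. All 10 epithelial markers, among them Vil1, Cdh1 and Cdx2, were well above background on every array. Their summed signal, in units of the 75th percentile, was 5815 and 6431 in IKKb(EE)IEC, against 10780 and 14090 in WT. A sum follows its brightest members, and of the 10 genes only 1 fell and 0 rose past the threshold. The summed signal of 10 macrophage and dendritic cell markers was 43.4 and 34.1, against 9.62 and 12.0 in WT, and 7 of the 10 rose. That of 8 T and NK cell markers was 100 and 87.25, against 116.7 and 152.0 in WT, with Cd2 not above background on any array. Liver markers (6 of 7 on the array) summed to 0.661 and 0.471, against 1.505 and 11.3 in WT, where 4 were above background on WT replicate 2 and none on the other arrays, and Fga and Ttr on no array. Of 7 markers of pancreatic acinar cells, 3 (Pnlip, Cpa1 and Amy2) were above background on no array, and the list summed to 28.2 and 31.2, against 457 and 200.7 in WT. The sums of 4 fat cell markers (0.805 and 0.814, against 1.26 and 1.55 in WT, with Adipoq and Cidea above background on no array) and of 5 muscle markers (6.94 and 6.98, against 8.66 and 9.20 in WT, with Des and Ckm above background on no array) were also lower in IKKb(EE)IEC. In such bulk samples, fewer cells of a type and less RNA per cell cannot be told apart.

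Promoter windows of 3 genes are shown, with motifs for regulators of mitochondrial genes marked. Mtch2 and Slc25a29 fell, while Slc25a25 did not pass on its brightest probe. The windows run from 250 bases before to 50 after the RefSeq start (GRCm38.p6), and capitals mark a match, on either strand, to the ETS motif CCGGAAG, bound by GABP, or the NRF1 motif, which is GCGC, any 2 bases, then GCGC.
Mtch2 (chr2:90846905-90847204, plus strand): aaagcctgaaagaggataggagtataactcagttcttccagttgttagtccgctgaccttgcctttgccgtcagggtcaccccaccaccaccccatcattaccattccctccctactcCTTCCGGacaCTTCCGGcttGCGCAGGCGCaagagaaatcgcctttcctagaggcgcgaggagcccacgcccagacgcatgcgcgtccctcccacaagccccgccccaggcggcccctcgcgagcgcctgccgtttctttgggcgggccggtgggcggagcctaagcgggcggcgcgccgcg
Slc25a29 (chr12:108835827-108836126, minus strand): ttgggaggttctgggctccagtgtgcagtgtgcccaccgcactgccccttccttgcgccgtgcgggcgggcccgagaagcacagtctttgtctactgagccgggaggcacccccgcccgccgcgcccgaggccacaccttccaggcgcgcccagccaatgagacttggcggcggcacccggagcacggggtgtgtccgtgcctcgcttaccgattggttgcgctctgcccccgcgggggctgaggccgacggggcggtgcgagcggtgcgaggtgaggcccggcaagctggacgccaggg
Slc25a25 (chr2:32451421-32451720, minus strand): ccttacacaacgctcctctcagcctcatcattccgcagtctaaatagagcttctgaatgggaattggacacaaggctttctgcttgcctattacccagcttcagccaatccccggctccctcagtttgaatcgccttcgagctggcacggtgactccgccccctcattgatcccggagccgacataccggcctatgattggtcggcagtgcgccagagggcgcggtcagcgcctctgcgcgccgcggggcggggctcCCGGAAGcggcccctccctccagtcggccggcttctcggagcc
The Mtch2 window held 2 ETS matches and 1 NRF1 match, and the Slc25a29 window none of either. Slc25a25 has 3 listed starts, and the window shown is the one with an ETS match, chosen for it. The windows of its other starts, and that of Ucp2, held no match to either motif and are not shown. Of the 33 carriers, 26 had at least 1 window in the RefSeq table (34 windows), and Slc25a37 was not among them. ETS matches were in 7 of the 34 windows (20.59%, with Slc25a3, Slc25a4, Slc25a17, Slc25a20 and Slc25a38 beside the 2 shown), against 8.86% of the 32851 windows of all genes. NRF1 matches were in 3 (8.82%, in Mtch2, Slc25a3 and Slc25a10), against 6.23%. The kappaB consensus, the motif of NF-kB, matched 3 of the 34 windows (8.82%, in Slc25a1, Slc25a10 and Slc25a17), against 8.46% of all. None of the 3 genes with a kappaB match passed the threshold. Of all carriers 9.09% did, and of all genes 15.1%, so 3 genes are too few to read. Matches of 2 of these motifs overlapped each other in 68 of all windows. A match is a run of letters, and windows of this length leave out enhancers.

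**Figure D2:**
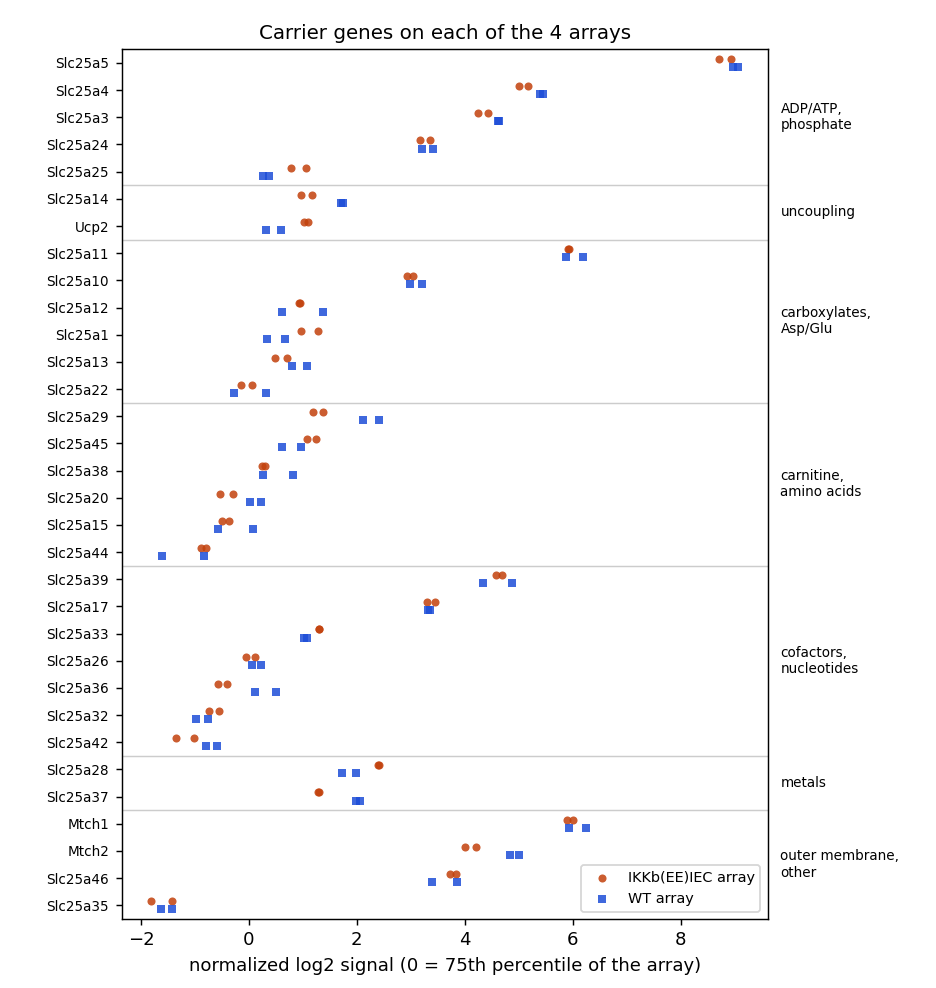
Normalized log2 signal (horizontal axis, 0 is the 75th percentile of an array) of 32 of the 33 carrier genes on each array, with circles for the 2 IKKb(EE)IEC arrays and squares for the 2 WT arrays. Both circles lie left of both squares for 11 genes and right of them for 7, and the groups overlap for 14.

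Arrays of the genotypes did not overlap for 18 of the 33 genes. Both IKKb(EE)IEC arrays lay below both WT arrays for 11 genes (33.3%) and above them for 7 (21.2%). Over all genes tested these shares were 40.9% and 28.3%, so both shares among the carriers lay below the background.

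Among the carriers of adenine nucleotides and phosphate, none of 5 measured genes passed. Slc25a5, an ADP/ATP translocase, had normalized log2 signals of 8.71 and 8.93 in IKKb(EE)IEC, against 8.97 and 9.07 in WT. Its log2 fold change of -0.20 ± 0.18 did not pass (adjusted p = 0.438), and was 0.22 in the authors' value table and 0.26 after quantile normalization. Slc25a4, the translocase typical of heart and muscle, had 4.996 and 5.18, against 5.44 and 5.39 in WT (-0.33 ± 0.17). Slc25a3, which imports the phosphate needed for ATP synthesis, had 4.24 and 4.42, against 4.63 and 4.61 in WT (-0.29 ± 0.17), and 0.03 with the repaired normexp correction. A dim second probe of Slc25a3 ran the other way, at -1.23 and -0.98, against -3.23 and -1.73 in WT. It entered through the IKKb(EE)IEC arrays alone, being well above background on neither WT array, and its difference did not pass (adjusted p = 0.105). With its WT values raised to the dimmest signal above background on each array, the IKKb(EE)IEC signal was 2.27-fold higher. On the brightest probes of these 3 genes both IKKb(EE)IEC arrays lay below both WT arrays by small margins, as for 40.9% of all genes. In the authors' value table only Slc25a4 kept this order, and the genotypes overlapped for Slc25a3. Slc25a5 was higher there on both IKKb(EE)IEC arrays, at 45961 and 48763, against 43723 and 37534 in WT. Before scaling of the arrays, the signals of all 3 were higher on both IKKb(EE)IEC arrays.

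Slc25a24 and Slc25a25 are calcium-regulated carriers that exchange ATP-Mg for phosphate. Slc25a24 had 3.35 and 3.17 in IKKb(EE)IEC, against 3.41 and 3.21 in WT, and the arrays overlapped (-0.05 ± 0.18). Slc25a25 had 0.78 and 1.07, against 0.37 and 0.26 in WT. Its log2 fold change of 0.61 ± 0.19 did not pass (adjusted p = 0.0774), and passed with the repaired normexp correction (0.52, adjusted p = 0.0465) and with the mean of its probes (0.86, adjusted p = 0.0409). A second, dimmer probe of Slc25a25 (chromosome 2, 32237100 to 32237159, mm8) had 0.64 and 0.79, against -0.19 and -0.60 in WT. It rose by 1.11 ± 0.21 with an adjusted p of 0.0298 over the 16405 probes that entered a separate limma comparison. In that comparison 5 of the 43 carrier probes passed, 1 higher and 4 lower, against 8.16% higher and 5.72% lower of all probes.

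Of the uncoupling proteins, which carry protons or metabolites across the inner membrane, Ucp2 and its relative Slc25a14 were measured, and neither passed. Ucp2, known from macrophages as well as from intestine, had 1.03 and 1.09 in IKKb(EE)IEC, against 0.59 and 0.32 in WT. The difference of 0.60 ± 0.18 did not pass (adjusted p = 0.0765), and passed with the repaired normexp correction (0.51, adjusted p = 0.0423). A second Ucp2 probe had -0.34 and -0.47, against 0.26 and -0.70 in WT, with overlapping arrays and a difference of -0.18 ± 0.33, so the 2 probes of Ucp2 did not give the same direction. The summed macrophage markers given above were higher on the same IKKb(EE)IEC arrays, and their part in the Ucp2 values was not tested. Slc25a14 had 0.97 and 1.16, against 1.71 and 1.75 in WT. Its difference of -0.66 ± 0.17 missed the threshold (adjusted p = 0.0566) and passed among probes above background on all 4 arrays (adjusted p = 0.0425), as it did at -0.45 with the authors' own values (adjusted p = 0.0336).

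**Figure D3:**
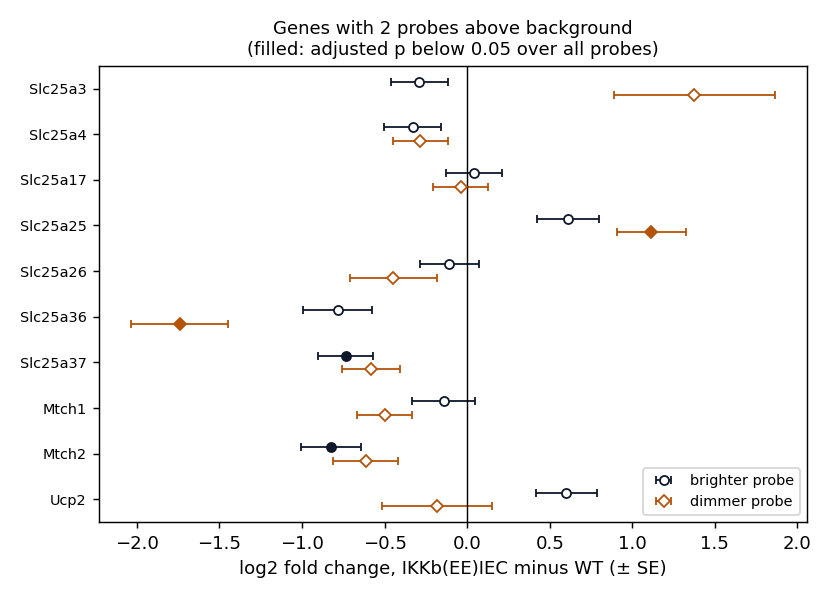
Log2 fold change (horizontal axis, with SE) of both probes for the 10 carrier genes with 2 probes above background on at least 2 arrays, with circles for the brighter and diamonds for the dimmer probe and filled symbols for an adjusted p below 0.05 over all probes. The probes lie on opposite sides of 0 for Ucp2, Slc25a3 and Slc25a17, and the dimmer probes of Slc25a36 and Slc25a25 lie farthest from 0 among those above background on both WT arrays.

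None of the 6 measured carriers of carboxylates and of aspartate and glutamate passed. Slc25a1, which exports citrate for fatty acid and sterol synthesis, had 0.96 and 1.28 in IKKb(EE)IEC, against 0.34 and 0.67 in WT. Both arrays were higher, and the difference of 0.61 ± 0.21 did not pass (adjusted p = 0.100). Slc25a11, the oxoglutarate carrier of the malate-aspartate shuttle, had 5.91 and 5.93, against 6.20 and 5.88 in WT, and its difference of -0.12 ± 0.19 was positive in the authors' value table (0.12). Slc25a12 and Slc25a13, the aspartate-glutamate carriers of that shuttle, had differences of -0.05 ± 0.28 and -0.34 ± 0.19. The 2 WT arrays of Slc25a12 lay at 1.37 and 0.62, farther apart than either was from the IKKb(EE)IEC arrays at 0.94 and 0.96. Slc25a10, which exchanges dicarboxylates for phosphate, and Slc25a22, a glutamate carrier, had differences of -0.11 and -0.07, with overlapping arrays.

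Among 6 carriers of carnitine and amino acids, Slc25a29 fell on its brighter probe. Its dimmer probe was well above background on 1 IKKb(EE)IEC array only and did not enter the comparison. That probe had -2.00 and -1.60, against -2.61 and -1.72 in WT, and the genotypes overlapped. The brighter probe (chromosome 12, 109274310 to 109274369, mm8) had 1.37 and 1.19 in IKKb(EE)IEC, against 2.11 and 2.42 in WT. Both IKKb(EE)IEC arrays lay below both WT arrays, by more than the arrays of a genotype differed. The log2 fold change was -0.99 ± 0.19 (adjusted p = 0.0339), a signal 1.98-fold higher in WT. It was -1.14 without WT replicate 1 and -0.83 without WT replicate 2, the array with liver transcripts. The call was lost without IKKb(EE)IEC replicate 1 (-1.08, adjusted p = 0.196) and without replicate 2 (-0.90, adjusted p = 0.285), with no filter on dim probes (adjusted p = 0.0628) and with the planned normexp correction, under which no gene passed.

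The other 5 carriers of that group did not pass. Slc25a20, which brings acylcarnitines into the matrix for fatty acid oxidation, had -0.54 and -0.30 in IKKb(EE)IEC, against 0.01 and 0.22 in WT (-0.54 ± 0.19, adjusted p = 0.101). Slc25a15, the ornithine carrier that supplies citrulline synthesis, had -0.36 and -0.49, against -0.58 and 0.08 in WT, with overlapping arrays (-0.18 ± 0.26). The glycine carrier of haem synthesis, Slc25a38, had a difference of -0.27 ± 0.24. Slc25a44, a carrier of branched-chain amino acids, had 0.39 ± 0.28 and was above background on 1 of the 2 WT arrays. Slc25a45 had 1.08 and 1.24, against 0.97 and 0.61 in WT (0.37 ± 0.20).

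The 8 carriers of cofactors, nucleotides and glutathione had 4 positive and 4 negative differences, and none passed. Slc25a36, which carries pyrimidine nucleotides, had -0.56 and -0.40 in IKKb(EE)IEC, against 0.11 and 0.50 in WT, a difference of -0.78 ± 0.21 (adjusted p = 0.0582) that passed among probes above background on all 4 arrays (adjusted p = 0.0435) and with the mean of its probes (-1.26, adjusted p = 0.0329). A second probe of Slc25a36 (chromosome 9, 96884304 to 96884363, mm8) had -1.96 and -1.59, against -0.40 and 0.33 in WT. It fell by 1.74 ± 0.29, with an adjusted p of 0.0228 over all probes, and was above background on 1 of the 2 IKKb(EE)IEC arrays. Both probes of Slc25a36 thus lay lower on both IKKb(EE)IEC arrays. Slc25a33, the other pyrimidine nucleotide carrier, had 1.31 and 1.30, against 1.03 and 1.09 in WT (0.25 ± 0.16). Slc25a42, a carrier of coenzyme A, had -1.02 and -1.35, against -0.59 and -0.80 in WT (-0.48 ± 0.20). Slc25a39, the glutathione carrier, had 4.58 and 4.68, against 4.88 and 4.34 in WT (0.03 ± 0.23). The peroxisomal carrier Slc25a17, Slc25a26 for S-adenosylmethionine and Slc25a32 for folate had differences of 0.04, -0.11 and 0.22.

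The iron carriers of mitochondria, Slc25a37 and Slc25a28, had differences of opposite sign, of which that of Slc25a37 passed. Slc25a37, the mitoferrin best known from red cell precursors, had 1.29 and 1.28 in IKKb(EE)IEC, against 2.06 and 1.99 in WT (chromosome 14, 68195293 to 68195352, mm8). It fell by 0.74 ± 0.16 on the log2 scale (adjusted p = 0.0417), and the arrays of each genotype lay close together. A second probe had -0.40 and -0.47, against 0.25 and 0.06 in WT, a difference of -0.58 ± 0.18 that did not pass over all probes (adjusted p = 0.0769). The call was lost without IKKb(EE)IEC replicate 1 (-0.74, adjusted p = 0.296) and replicate 2 (-0.73, adjusted p = 0.335), with a shift by the array median (-0.68, adjusted p = 0.144), with the mean of both probes (-0.66, adjusted p = 0.0521) and with a replicate block (adjusted p = 0.0578). It was also lost with no filter on dim probes (adjusted p = 0.0628) and with the repaired normexp correction (-0.38, adjusted p = 0.0627), beside the planned one. Slc25a28, the broadly expressed mitoferrin, had 2.40 and 2.41, against 1.99 and 1.73 in WT, and its difference of 0.55 ± 0.18 did not pass (adjusted p = 0.0892), and passed with the repaired normexp correction (0.69, adjusted p = 0.0175). Transcripts of red cells were chosen after their values were seen. Hba-a1 had 3.49 and 2.20, against 2.32 and 2.13 in WT (0.62 ± 0.42, adjusted p = 0.320), Alas2 was above background on no array, and their part in the Slc25a37 values was not tested.

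Of the outer membrane relatives, Mtch2 fell. Mtch2 inserts proteins into the outer membrane and binds the death regulator BID. Its brighter probe (chromosome 2, 90660359 to 90661311, mm8, an interval longer than the probe) had 3.997 and 4.21 in IKKb(EE)IEC, against 4.84 and 5.01 in WT. The log2 fold change was -0.82 ± 0.18 (adjusted p = 0.0409), a signal 1.77-fold higher in WT. Its second probe had 0.35 and 0.20, against 0.73 and 1.05 in WT, and did not pass over all probes (-0.61 ± 0.19, adjusted p = 0.0865). The call was lost without IKKb(EE)IEC replicate 1 (-0.72, adjusted p = 0.309) and replicate 2 (-0.93, adjusted p = 0.253), and with a shift by the array median (-0.77, adjusted p = 0.0892). It was also lost with no filter on dim probes (adjusted p = 0.0628) and with the repaired normexp correction (-0.48, adjusted p = 0.0786), beside the planned one.

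The close relative Mtch1 had 5.89 and 5.998, against 5.93 and 6.24 in WT, and its difference of -0.14 ± 0.19 was positive in the authors' value table (0.07), after quantile normalization (0.09) and with the repaired normexp correction (0.16). A second, dimmer Mtch1 probe, above background on all 4 arrays, had -0.26 and -0.30, against 0.17 and 0.26 in WT. Both IKKb(EE)IEC arrays were lower on it, and its difference of -0.50 ± 0.17 did not pass over all probes (adjusted p = 0.0956). Slc25a46, which acts in mitochondrial fusion, had 3.84 and 3.73, against 3.86 and 3.39 in WT (0.16 ± 0.22). Slc25a35, whose substrate is not settled, was above background on no WT array, and its difference of -0.09 ± 0.21 gives no bound.

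The processed signals before scaling of the arrays separated the genotypes for 1 of the 3 falls. The unscaled signal of Mtch2 was 1512 and 1995 in IKKb(EE)IEC, against 1732 and 2133 in WT. That of Slc25a37 was 232 and 262, against 250.4 and 262 in WT, and that of Slc25a29 was 244 and 245, against 260 and 353 in WT. For Slc25a29 both IKKb(EE)IEC arrays thus lay below both WT arrays before scaling too, while for Mtch2 and Slc25a37 the genotypes overlapped. In the authors' value table, which was normalized between arrays by other means, all 3 differences were negative and passed in limma, at -0.63 for Mtch2, -0.45 for Slc25a37 and -0.74 for Slc25a29.

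**Figure D4:**
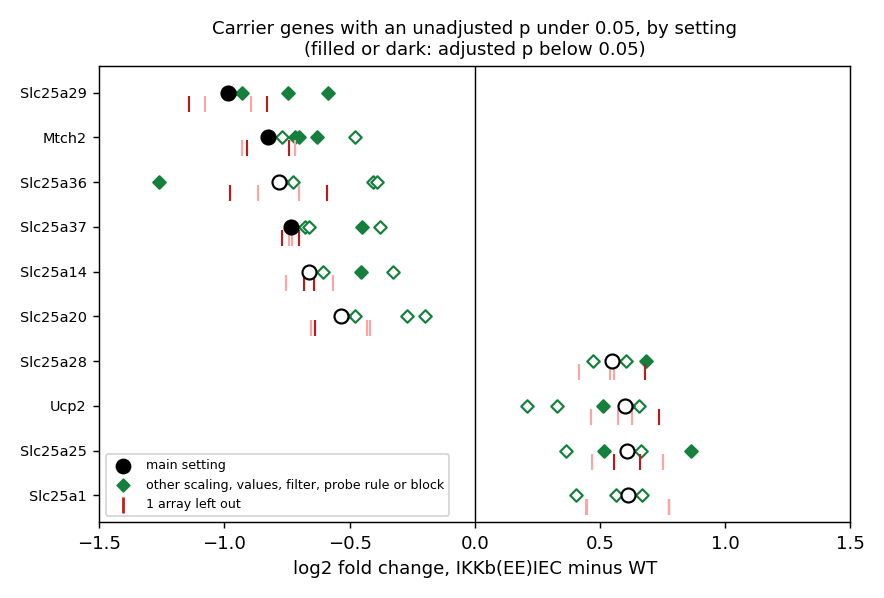
Log2 fold change (horizontal axis) of the 10 carrier genes with an unadjusted p under 0.05, for the main setting (large circles), other scalings, values, filters, probe rules and the replicate block (diamonds) and with 1 array left out (bars), filled or dark where the adjusted p was below 0.05. The planned normexp correction is not drawn. No symbol lies across 0, and no gene is filled in every setting.

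Another 14 carriers gave no comparison. Slc25a41 was well above background on 1 array and the remaining 13 on none. These were the uncoupling proteins Ucp1 of brown fat and Ucp3 of muscle, their relatives Slc25a27 and Slc25a30, the testis ADP/ATP translocase Slc25a31, and Slc25a2, Slc25a16, Slc25a18, Slc25a21, Slc25a23, Slc25a34, Slc25a40 and Slc25a43. Slc25a47, Slc25a48 and Slc25a51 are listed under older names in the files and were therefore outside the selection. Of these Slc25a51, the carrier of NAD, was measured, with 1.74 and 1.79 in IKKb(EE)IEC, against 1.48 and 1.29 in WT (0.38 ± 0.17, adjusted p = 0.162).

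**Figure D5:**
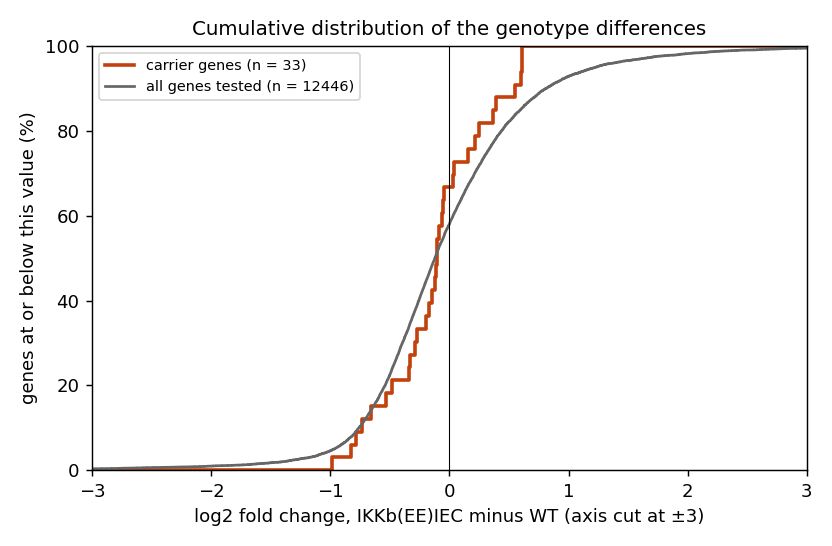
Cumulative share of genes (vertical axis, percent) at or below each log2 fold change (horizontal axis, cut at 3 on either side) for the 33 carriers and for all 12446 genes tested. The carriers run from -0.99 to 0.61, within the wider spread of all genes, and both medians lie near -0.1.

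Genes that work beside the carriers were read from lists of import factors, other mitochondrial transporters, shuttle enzymes and regulators. Of 79 measured genes on these lists 3 rose and 4 fell, against 7.97% and 7.17% of all genes tested, and their median log2 fold change was -0.15. The TOM and TIM import factors had no call among 18 measured genes (median -0.18). That list was not limited to the TOM and TIM22 route of the carriers, and also held Timm23, Timm44 and Timm50. Of 15 other mitochondrial transporters, Mpc2, a subunit of the pyruvate carrier, fell by 0.77 ± 0.19 (adjusted p = 0.0495), with 5.16 and 5.35 in IKKb(EE)IEC, against 5.90 and 6.15 in WT. None of 8 enzymes of the malate-aspartate shuttle and citrate export passed (median 0.13).

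Of the partners of the carnitine shuttle, Slc22a5, the carnitine transporter of the plasma membrane, rose by 1.24 ± 0.19 (adjusted p = 0.0186), with 1.90 and 1.64 in IKKb(EE)IEC, against 0.41 and 0.64 in WT. The other 3 members, Cpt1a, Cpt2 and Crat, did not pass. All 4 differences were positive (median 0.61), while 58% of all genes tested had a negative one. For 2 of the 4, Cpt1a and Crat, the arrays of the genotypes overlapped, and only WT replicate 2 lay clearly lower. Among 10 enzymes of citrulline, ornithine and glutamate metabolism 3 fell, among them Otc and Ass1. The median of that list was -0.75, and 9 of its 10 differences were negative, against 58% of all genes tested. Both IKKb(EE)IEC arrays lay below both WT arrays for 8 of the 10, against 40.9% of all genes. This list and that of the carnitine shuttle were chosen with earlier results of these data known. Their shares are therefore no independent support for a shared direction. Otc, which makes citrulline from the ornithine that Slc25a15 imports, had 3.14 and 3.28, against 3.99 and 4.21 in WT (-0.89 ± 0.18, adjusted p = 0.0349). Ass1, which uses citrulline, had -1.62 and -1.70, against -0.82 and -0.43 in WT (-1.03 ± 0.20, adjusted p = 0.0336). The IKKb(EE)IEC values of Ass1 lay near background, beside the -1.44 and -1.67 of Slc25a34, which was above background on no array. Both Otc and Ass1 were highest on WT replicate 2, the array with liver transcripts, and the part of these transcripts was not tested.

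Alas1, which makes the first haem precursor in the matrix, rose by 1.46 ± 0.17 (adjusted p = 0.00786), with 5.57 and 5.44 in IKKb(EE)IEC, against 4.01 and 4.07 in WT, and was the 1 call among 14 partners of haem, iron-sulphur and one-carbon metabolism (median -0.0023). Among 10 regulators of mitochondrial biogenesis, Polrmt, the mitochondrial RNA polymerase, rose by 1.75 ± 0.17 (adjusted p = 0.00506), with 2.68 and 2.51, against 0.87 and 0.81 in WT. The other 9 regulators, among them Tfam and Ppargc1a, did not pass, and the median of the list was 0.09. Without IKKb(EE)IEC replicate 2 Polrmt alone of these 79 genes passed, and without replicate 1 none did.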

How the data were processed

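Total RNA was labelled with Cy3 from 250 ng, per the labels' protocols, and hybridised to arrays of Agilent design 014868. Per the file headers, Feature Extraction 9.5.3.1 made the deposited intensities, which are background-subtracted, detrended and with substituted values for dim spots, without normalization between arrays. The authors also deposited a value table of linear intensities for 40913 probes, with medians of 111.5 to 112.0, so normalized between arrays, and the sources used here do not name the method. The flags (other columns) of the deposited files mark outliers and spots above background, per the file headers.

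Each array's processed signal was divided by its 75th percentile and put on the log2 scale. Of the flagged spots, outliers (1 to 7 per array) were dropped and saturated ones (2 to 4 per array, none of a carrier) kept, and a gene was represented by its probe of highest mean. Probes well above background on 2 or more arrays entered. Names follow RefSeq accessions for 24375 probes, and probe coordinates are those of the files (mm8). Groups were compared with limma 3.58.1 in R 4.3.3 (lmFit, eBayes, two-sided, Benjamini-Hochberg). On simulated data for 12446 genes the fit recovered 86 of 100 changes of 2 log2 units and 1 of 100 of 1 log2 unit, with 8 false calls. Far fewer genes changed there than the 1884 called here. The simulated threshold was therefore stricter, and these recoveries do not carry over to the data. Changes of the size seen among the carriers can still be missed, and how often was not tested. The number of arrays limits the precision.

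Single values of some genes are not reported here, while counts and medians include them. Otherwise, carriers with an adjusted p below 0.05 are given in full, with the carriers at an unadjusted p under 0.05, the brightest probe of each role and Ucp2, Slc25a20, Slc25a15 and Mtch2, and of the partner lists only genes past the threshold are given with values. Members, lists and tests were chosen with earlier results of these data known. Alternatives were other background corrections, scalings, filters, probe rules, the authors' table, a replicate block and leaving out each array.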

Additional observations from a re-analysis of the deposited data

How the results depend on the processing

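Carrier genes counted as lower (3) became 0 with the planned normexp correction and with no filter, 1 with its repaired form and with a median shift, and 5 with probes above background on all arrays. Those higher (0) became 3 with the repaired normexp (Slc25a25, Slc25a28 and Ucp2) and 1 with the mean of a gene's probes (Slc25a25). With the planned normexp, 0 genes passed of all (188 at an unadjusted p under 0.05), and 0 carrier probes and 0 partner genes, since 7 probes had a local background above the spot. The repaired form, chosen after seeing the data, leaves these out. Without a filter 843 genes, 3 partner genes and 0 carrier probes passed. With 1 array left out, carriers lower ranged from 0 to 8, carriers higher from 0 to 5, carrier probes from 0 to 20, partner genes from 0 to 29 and all genes from 247 to 6162, the low ends without an IKKb(EE)IEC array. The lone array of a genotype is then assumed to vary like the other genotype's pair, so these calls follow the closer or wider spread of the pair that is left. The mean of a gene's probes gives no value for single probes. A replicate block gave 0 higher and 2 lower carriers, 5 carrier probes, 6 partner genes and 1501 genes. Replicate differences of the genotypes correlated at 0.108, and 2 pairs do not show that the numbers pair the samples.

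Some uncalled carriers changed sign. In the authors' table Mtch1 had 0.0702, Slc25a11 0.12, Slc25a12 0.0219, Slc25a24 0.0073, Slc25a26 0.0247 and Slc25a5 0.22. With the repaired normexp Mtch1 had 0.16, Slc25a10 0.17, Slc25a11 0.20, Slc25a12 0.11, Slc25a24 0.24, Slc25a3 0.0312, Slc25a32 -0.0022, Slc25a44 -0.0035 and Slc25a5 0.12. With the planned normexp Slc25a17 had -0.0384 and Slc25a39 -0.0393. Quantile normalization gave Mtch1 0.0942, Slc25a11 0.11 and Slc25a5 0.26, a median shift Slc25a12 0.0084 and Slc25a24 0.0043, and the mean of probes Slc25a3 0.54. With 1 array left out the ranges were -0.30 to 0.0138 for Mtch1, -0.28 to 0.0369 for Slc25a11, -0.42 to 0.33 for Slc25a12, -0.50 to 0.15 for Slc25a15, -0.0371 to 0.12 for Slc25a17, -0.36 to 0.23 for Slc25a22, -0.15 to 0.0476 for Slc25a24, -0.29 to 0.11 for Slc25a35, -0.56 to 0.0133 for Slc25a38, -0.24 to 0.30 for Slc25a39 and -0.0738 to 0.39 for Slc25a46. In all, 15 carriers, among them the 3 called, kept their sign under the 13 alternatives and 18 did not. The median of all genes, -0.12, became -0.45 without a filter. The carriers' -0.11 there is over the same 33 genes and probes, so it could not move. With the repaired normexp the median of all genes was 0.0034, and 75.1% of the calls were higher. That share was 52.65% in the main setting, 63.4% with a median shift and 39.99% with all-array probes. The causes were not tested. Probes near background limit Slc25a35, Slc25a44, the second probes of Slc25a3 and Slc25a36 and, among the partner genes, Ass1.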
